A study of Bos taurus with 16 samples.

Results

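The comparison described here is that of high with low feed intake within fast-growing cattle. The spleens of 4 high gain-high intake steers (HH) were set against those of 4 high gain-low intake steers (HL), 8 of the 16 steers in the series. The steers were taken by their phenotype label alone, so no expression value entered their choice. All 16 were crossbred beef steers of about the same age, kept together with free access to the same ration, followed over an 84-day feeding trial and fed until the morning of slaughter, and no group received a treatment. HH steers gained much weight and ate much, and HL steers gained much weight on little feed. Intake was not assigned, and the mean gain given in the paper was also higher in HH than in HL steers. Gain was therefore not matched between the groups. The remaining steers were low gain-high intake (LH, 4) and low gain-low intake (LL, 4). RNA of each spleen was hybridised to 1 Affymetrix Bovine 1.1 ST array, and each value is a log2 intensity of a transcript cluster, a set of probes along 1 gene. A difference of 1 is therefore a doubling on the deposited scale, which had been stretched by the authors' processing. Each of the 4 slaughter days took 1 steer of every group, and breed composition differed between groups. The sources used here do not tie a day, breed or array strip to a single steer, which left these outside the fit.

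The spleen filters blood in its red pulp, where macrophages remove old red cells and recycle their iron, and mounts immune responses in its white pulp, where B and T cells meet antigen. A capsule and trabeculae of smooth muscle and collagen enclose and divide both. Interferons, released on infection, switch on large sets of antiviral genes, and MHC class II molecules on macrophages, dendritic cells and B cells show peptides to T cells. Spleen RNA is a mixture from all of these cells, so fewer cells of a type and less RNA per cell cannot be told apart. The mean log2 level of 19 B cell genes lay between 10.7 and 11.8 in HH steers and between 10.9 and 11.6 in HL steers, and that of 18 red pulp macrophage genes between 13.3 and 13.8 in HH steers and between 13.2 and 13.8 in HL steers. Liver genes averaged 6.87 to 7.12 in HH steers and 7.0 to 7.12 in HL steers, and exocrine pancreas genes 7.41 to 7.81 in HH steers and 7.41 to 7.72 in HL steers, below the median level of 8.297 of all clusters. Levels of different probe sets are not on one scale, so these are a check of the tissue label only. The medians of the 8 arrays lay between 8.24 and 8.33, and their pairwise correlation across clusters between 0.959 and 0.985.

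HL steer 2 stood apart from the other steers in its interferon genes. For 23 of the 24 type I interferon stimulated genes measured, its spleen had the highest value of all 16 steers, with a median excess of 3.64 over the median of the others. HH steer 3 came next, with a median excess of 0.72. HL steer 2 also had the lowest values of all 16 steers for HBA and HBB, the globin genes described below. The interferon lists are therefore given with and without HL steer 2.

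No cluster passed the test after adjustment. In limma, 904 of the 24997 clusters (3.62%) had an unadjusted p under 0.05, fewer than the 1250 that p-values spread evenly between 0 and 1 would give. Of these, 414 (1.66%) were higher and 490 (1.96%) lower in HH than in HL steers. None reached a Benjamini-Hochberg adjusted p under 0.05, and the lowest adjusted p was 1 (0.285 without HL steer 2). Ordinary least squares, the same model without moderation, gave 925 clusters at an unadjusted p under 0.05 and 0 after adjustment. All 4 HH values lay above all 4 HL values for 231 clusters (0.924%) and below them for 297 (1.19%). Over all clusters 49.2% had a difference above 0 and 50.7% a difference below 0, and the median difference was close to 0. The genes below are therefore the leading ones of a comparison without a call, and every adjusted p of a gene named for this comparison is 1. They were picked by their difference on these same steers, so their small unadjusted p describes the choice. Of the genes named here, 68 with an unadjusted p under 0.05 were checked by leaving out each of the 8 steers. Of these 68, 32 kept it whichever steer was left out and 36 lost it without at least 1 steer. LOC100139916, named below outside the rule, was not among those checked. The exact permutation test over 8 steers has 70 splits and cannot give a two-sided p below 0.0286.

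ADORA2A, a receptor through which adenosine raises cAMP and restrains leukocytes, had the smallest p of all clusters. Its log2 intensity was 9.51, 9.38, 9.13 and 9.56 in HH steers, against 8.61, 8.75, 8.46 and 8.85 in HL steers. The groups did not overlap, and the difference was 0.73 (standard error 0.14, limma p = 9.81e-05, exact permutation p = 0.0286). PI15, a secreted peptidase inhibitor, had 11.80, 12.13, 10.91 and 11.18 in HH steers and 10.28, 9.80, 10.43 and 10.27 in HL steers, a difference of 1.31 (standard error 0.29). SYT11, a synaptotagmin of vesicle traffic, had 9.26, 9.41, 9.46 and 9.51 in HH steers and 9.08, 8.55, 8.87 and 8.96 in HL steers, a difference of 0.54 (standard error 0.13). In both genes every HH steer was above every HL steer, the HH steers being spread over more than 1 unit for PI15 and tightly for SYT11. MUSTN1, a small nuclear protein of muscle and skeletal tissue, had 14.20, 13.34, 14.76 and 14.98 in HH steers and 12.97, 12.46, 13.001 and 13.38 in HL steers. HH steer 2 was just below the highest HL steer, so the groups touched, with a difference of 1.37 (standard error 0.33).

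**Figure D1:**
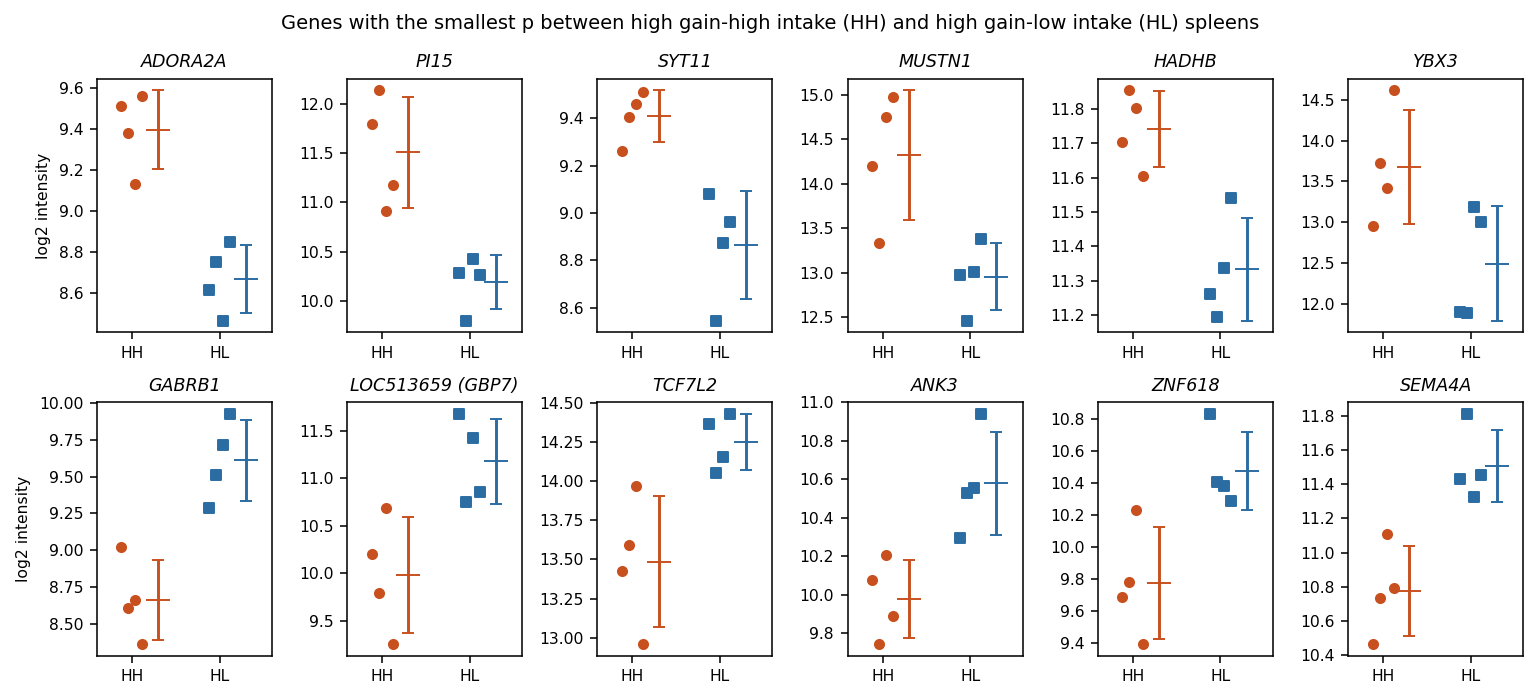
Log2 intensity of 12 of the genes with the smallest limma p, each in its own panel with its own axis (not starting at 0). Points are steers, HH left (circles) and HL right (squares), and the bar beside them is the mean with its SD. The 4 HH steers of ADORA2A lie at 9.13 to 9.56, above the 4 HL steers at 8.46 to 8.85, and those of LOC513659 lie below the HL steers.

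The other genes among the 10 with the smallest p on the higher side were LOC782054, HADHB, SAFB, SETD7, OR7E199 and YBX3, with differences from 0.41 to 1.18. HADHB, the beta subunit of the mitochondrial enzyme that completes the oxidation of long chain fatty acids, had 11.70, 11.85, 11.80 and 11.60 in HH steers and 11.26, 11.19, 11.34 and 11.54 in HL steers. This was a small but evenly distributed difference of 0.41 (standard error 0.11, limma p = 0.00173, exact permutation p = 0.0286), with no overlap. SAFB, a nuclear scaffold and RNA-binding protein, had 10.08, 10.20, 10.19 and 10.63 in HH steers and 10.02, 8.78, 9.79 and 9.16 in HL steers, so that HL steer 1 nearly reached the lowest HH steer. YBX3, a Y-box protein that binds RNA and DNA, had 12.95, 13.73, 13.42 and 14.61 in HH steers and 11.90, 11.89, 13.19 and 13.01 in HL steers, where HL steers 3 and 4 overlapped the HH range. SETD7, a lysine methyltransferase, and OR7E199, an olfactory receptor gene, differed by 0.59 and 0.81. The largest differences at an unadjusted p under 0.05 on this side were those of LOC780876 (1.84, a dim cluster), FABP3 (1.63), ALDH1A1 (1.41), CRYAB (1.39) and MUSTN1. ALDH1A1, which makes retinoic acid from retinaldehyde, had 14.35, 14.27, 13.69 and 16.60 in HH steers and 12.90, 13.21, 13.19 and 13.96 in HL steers, led by HH steer 4. Without that steer neither ALDH1A1 nor CRYAB had a limma p under 0.05, at differences of 0.79 and 0.93.

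On the lower side, GABRB1, a subunit of the GABA-A receptor, had 9.02, 8.61, 8.66 and 8.36 in HH steers, against 9.29, 9.51, 9.71 and 9.93 in HL steers. The groups were apart, with a difference of -0.95 (standard error 0.21, limma p = 0.000374, exact permutation p = 0.0286), but a second and dimmer cluster of the gene differed by only 0.07 (standard error 0.13). LOC513659, which the study's supplementary list names GBP7, belongs to the interferon-induced guanylate binding proteins. Its log2 intensity was 10.20, 9.79, 10.69 and 9.25 in HH steers and 11.68, 10.75, 11.43 and 10.85 in HL steers, a difference of -1.19 (standard error 0.31, limma p = 0.0014, exact permutation p = 0.0286). Here HL steer 2 was the lowest of the HL steers, and without it the difference was -1.34 (standard error 0.33). TCF7L2, a transcription factor of Wnt signaling, had 13.43, 13.59, 13.97 and 12.96 in HH steers and 14.36, 14.05, 14.15 and 14.43 in HL steers, with no overlap. SEMA4A, a semaphorin of immune cells, had 10.47, 10.73, 11.11 and 10.80 in HH steers and 11.43, 11.81, 11.33 and 11.46 in HL steers, again without overlap, a difference of -0.73 (standard error 0.22). ANK3, which anchors membrane proteins to the cytoskeleton, differed by -0.60, and its second cluster by -0.55. ZNF618, C3H1orf54, ACBD6, an acyl-CoA binding protein, and HACD4, an enzyme of very long chain fatty acid synthesis, also had every HH value below every HL value, with differences from -0.54 to -0.72. CDS1, which makes CDP-diacylglycerol for phospholipids, differed by -0.89, with HH steer 3 inside the HL range. Among the 5 largest differences on this side at an unadjusted p under 0.05 were also those of the dim microRNA gene MIR2393 (-2.12, no overlap) and of LOC786987 (-1.64, standard error 0.70), beside BOLA-DQB, BOLA-DQA5 and CXCL10, described below. Outside this rule, and named after its values were seen, the unannotated gene LOC100139916 had the second smallest p of all clusters (0.000224) and lay below the median level, with a difference of -1.05 (standard error 0.22).

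The largest difference of any cluster was that of BOLA-DQB, the beta chain of the DQ class II molecule. The number and identity of DQ genes differ between bovine MHC haplotypes, and the haplotypes of these steers were not analysed here. BOLA-DQB had 8.68, 8.89, 8.81 and 9.03 in HH steers and 8.61, 13.67, 14.40 and 14.64 in HL steers. All 4 HH steers and HL steer 1 were at the low level and HL steers 2, 3 and 4 at a level about 5 units higher, with nothing in between. The difference was -3.98 (standard error 1.31, limma p = 0.00828, exact permutation p = 0.143). The same 2 levels were seen in low gain steers, where LH steers had 8.05, 8.69, 9.21 and 8.77 and LL steers 14.31, 8.77, 13.65 and 8.85. Over the series, 5 low intake steers and 0 high intake steers were at the higher level. BOLA-DQA5, an alpha chain, had 7.05, 5.83, 6.33 and 6.82 in HH steers and 6.68, 10.96, 8.43 and 9.28 in HL steers and was higher in the same 3 HL steers, with a difference of -2.33 (standard error 0.94). BOLA-DQA1 had 16.06, 15.39, 16.23 and 13.89 in HH steers and 14.76, 16.45, 16.99 and 17.30 in HL steers. The same 3 HL steers were above all HH steers for this gene too, by a smaller margin, with a difference of -0.98 (standard error 1.23). BOLA-DQA2 had 10.17, 7.56, 8.19 and 10.44 in HH steers and 10.20, 8.37, 8.35 and 8.45 in HL steers. Of the 12 class II genes outside DQ, 4 were higher and 8 lower in HH steers, with a median difference of -0.07 and none at an unadjusted p under 0.05. BOLA-DRA, the alpha chain of the DR molecule, lay near but below the highest value on any array, 19.93. It had 1 identical value, 19.51, in several steers of both groups, so its difference is not given.

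**Figure D2:**
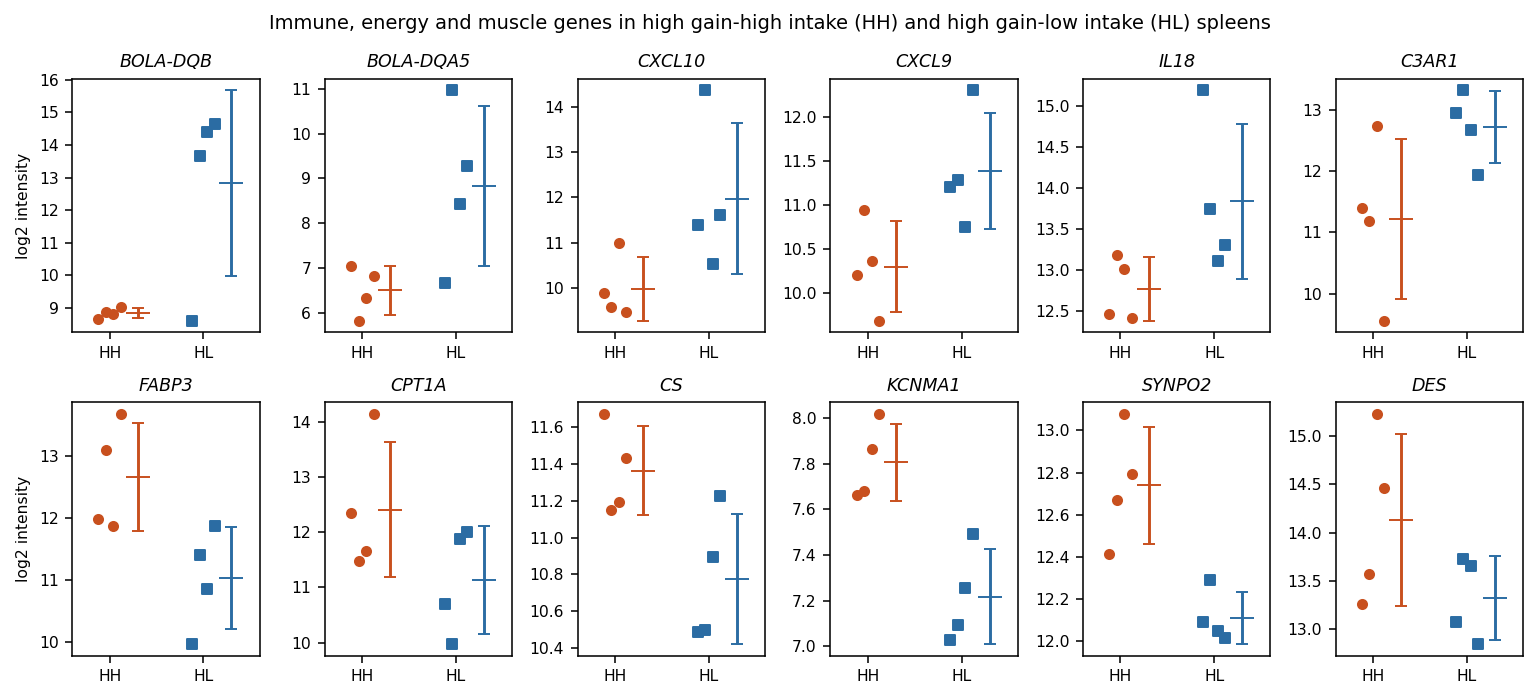
Log2 intensity of 12 genes of antigen presentation, inflammation, fatty acid and citrate metabolism and smooth muscle in HH (left, circles) and HL (right, squares) steers, with the mean and SD beside the points. Each panel has its own axis, not starting at 0. BOLA-DQB shows 3 HL steers near 14 and the other 5 steers near 9. Only KCNMA1 and SYNPO2 are without overlap between the groups.

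All 24 type I interferon stimulated genes measured, of 32 listed, were lower in HH steers, with a median difference of -0.84. None had an unadjusted p under 0.05, and the pattern rested on HL steer 2. RSAD2, the antiviral protein viperin, had 9.67, 9.35, 11.08 and 9.01 in HH steers and 9.002, 16.65, 10.06 and 9.37 in HL steers, and ISG15, a ubiquitin-like protein, had 9.10, 9.11, 11.97 and 9.85 in HH steers and 9.04, 16.14, 9.77 and 9.19 in HL steers. In both genes HL steer 2 exceeded the other HL steers by more than 6 units and HH steer 3 was the next highest. MX1, an antiviral GTPase, had 12.26, 12.02, 14.56 and 12.70 in HH steers and 11.91, 17.97, 12.79 and 12.18 in HL steers. These 3 genes were named for being well known markers, after their values were seen. IFI6 reached the ceiling of the scale in HH steer 3 and HL steer 2 and was therefore only bounded there. The members with the smallest p were ISG20 (-0.51), EPSTI1 (-0.95), IFIT2 (-1.10) and TRIM25 (-0.52), with limma p from 0.0726 to 0.142, and these differed by -0.20, -0.25, -0.26 and -0.24 without HL steer 2. Without HL steer 2 the list turned round, with 18 of 24 genes higher and 6 lower in HH steers and a median of 0.14. Without HH steer 3 all 24 remained lower, with a median of -1.14, and 2 had an unadjusted p under 0.05.

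**Figure D3:**
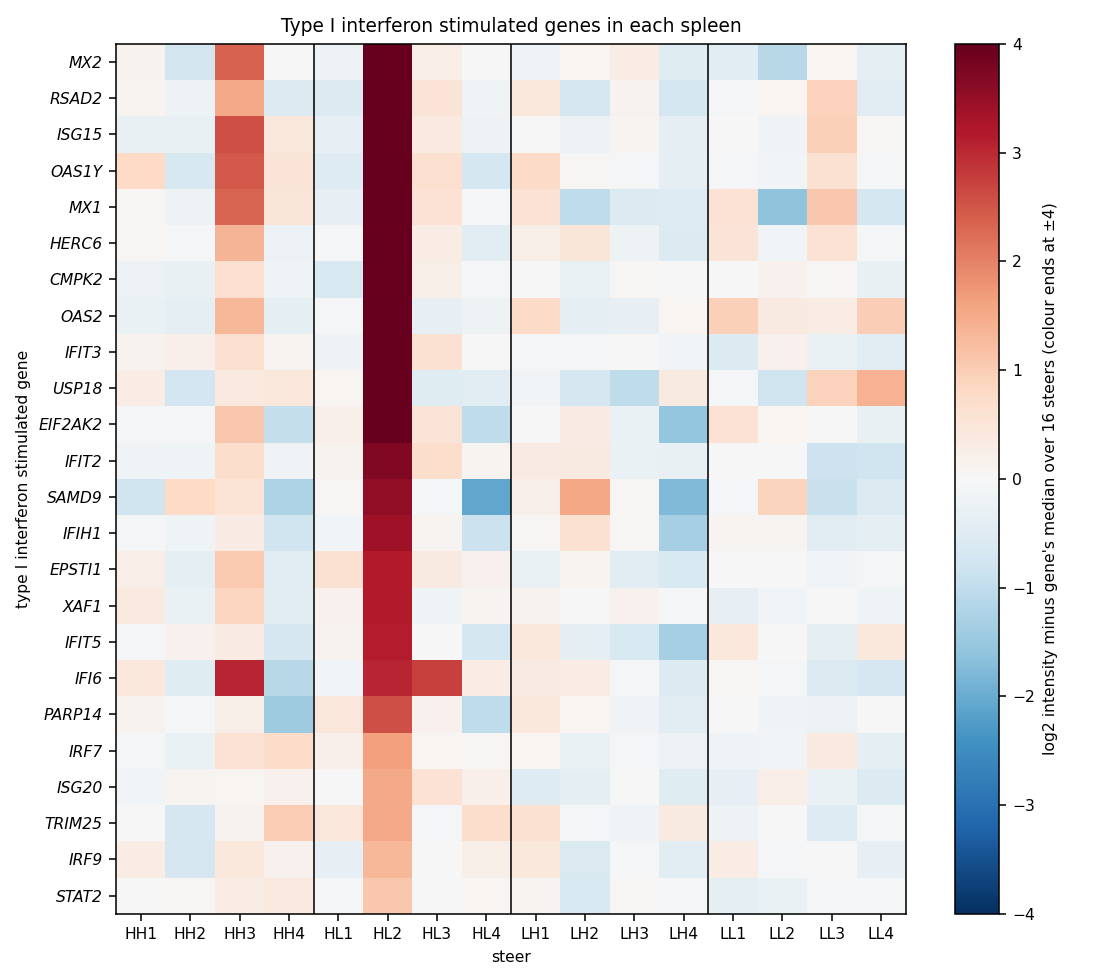
Heat map of the 24 type I interferon stimulated genes (rows) in the 16 steers (columns, HH, HL, LH and LL from left to right). Colour is the log2 intensity minus the gene's median over 16 steers, and ends at 4 in either direction. HL steer 2 is raised in nearly all rows and HH steer 3 more weakly, while the low gain steers vary around 0.

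The guanylate binding proteins, GTPases that attack intracellular microbes, were lower in HH steers in 4 of 4 clusters named by the annotation, with a median of -0.79. GBP4 had 8.22, 8.45, 8.68 and 7.65 in HH steers and 8.04, 12.08, 8.304 and 7.95 in HL steers, so HL steer 2 alone set its difference of -0.84 (standard error 0.68). GBP1 had 11.09, 11.27, 11.20 and 10.34 in HH steers and 11.53, 12.71, 11.28 and 11.13 in HL steers, with overlap at HL steer 4. GBP5 and LOC781710 differed by -0.75 and -1.03. Without HL steer 2, GBP1 and GBP5 differed by -0.34 and -0.29 and the median of the 4 was -0.21, with 1 higher and 3 lower. LOC513659, described above, was the only one of these 5 genes whose groups did not overlap.

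The chemokines CXCL9, CXCL10 and CXCL11, which interferon gamma induces and which draw T cells through CXCR3, were all lower in HH steers. CXCL10 had 9.87, 9.57, 10.99 and 9.45 in HH steers and 11.38, 14.37, 10.52 and 11.62 in HL steers. HL steer 2 was the highest and HH steer 3 overlapped the HL range. The difference was -2.01 (standard error 0.66, limma p = 0.00837, exact permutation p = 0.0571), and -1.21 (standard error 0.48) without HL steer 2. CXCL9 had 10.21, 10.94, 10.36 and 9.68 in HH steers and 11.20, 11.29, 10.74 and 12.30 in HL steers, a difference of -1.09 (standard error 0.50, limma p = 0.0478, exact permutation p = 0.0571). CXCL11 differed by -0.52 (limma p = 0.0405, exact permutation p = 0.0857). Without HL steer 2 neither CXCL9 nor CXCL11 had a limma p under 0.05, at differences of -1.12 and -0.43. IFNG itself, at a low level, differed by 0.15 (standard error 0.14), and JAK1, a kinase of the interferon receptors, differed by 0.41 (standard error 0.18), and by 0.20 (standard error 0.15) without HL steer 2, the lowest of the 8. Over the 17 genes of this list 12 were lower and 5 higher, with a median of -0.12. At an unadjusted p under 0.05 were 3 lower and 1 higher gene, against 1.96% and 1.66% of all clusters. These were 1 and 0 without HL steer 2, with 11 lower, 6 higher and a median of -0.05. Among 14 genes of MHC class I, peptide loading and the immunoproteasome, only PSMB10, a catalytic subunit of the immunoproteasome, had a p under 0.05, with a difference of -0.68 (standard error 0.29), and -0.56 (standard error 0.31), no longer under 0.05, without HL steer 2. ERAP2, which trims peptides for class I, differed by -0.44 (standard error 0.24).

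CASP1, the protease that activates IL-1 beta and IL-18, had 9.76, 10.29, 10.12 and 10.001 in HH steers and 10.70, 10.65, 10.52 and 10.36 in HL steers, with no overlap. Its substrate IL18 had 12.46, 13.17, 13.01 and 12.41 in HH steers and 15.19, 13.74, 13.10 and 13.30 in HL steers, a difference of -1.07 (standard error 0.43, limma p = 0.0238, exact permutation p = 0.0571). HL steer 1 was the highest for IL18, and without it the difference was -0.62 (standard error 0.36), no longer under 0.05. CASP1 and TRIM38, a regulator of innate signaling, were picked after their values were seen. TRIM38 had 10.63, 10.32, 10.70 and 9.79 in HH steers and 10.96, 11.70, 10.83 and 10.70 in HL steers, with a difference of -0.69 (standard error 0.22). C3AR1, the receptor for the complement fragment C3a on myeloid cells, had 11.40, 11.18, 12.74 and 9.56 in HH steers and 12.95, 13.32, 12.67 and 11.94 in HL steers, with HH steer 3 inside the HL range. TLR2, a receptor for bacterial lipoproteins, differed by -0.45, and complement C2 by -0.43. CEBPA, a transcription factor of the myeloid lineage, differed by -0.44 (standard error 0.14), SAA4, a serum amyloid, by -0.34 and BDKRB2, the bradykinin B2 receptor, by -0.44. These 3 genes had no overlap between groups, but all 3 were dim, with group means from 4.60 to 6.57. Lists of such genes had medians close to 0. Of 28 inflammatory cytokine and chemokine genes 11 were higher and 17 lower (median -0.08). Of 28 complement genes 14 were higher and 13 lower (median 0.02), and of 18 red pulp macrophage genes 7 were higher and 11 lower (median -0.04). The acute phase list with SAA4 had 10 higher and 5 lower (median 0.06), and the coagulation list with BDKRB2 had 15 higher and 11 lower (median 0.07). Dendritic cell genes were lower in 13 of 14 cases (median -0.16), none at an unadjusted p under 0.05. PTX3, a pentraxin, and LTA, lymphotoxin alpha, were higher by 0.60 and 0.31. IL15, a cytokine of natural killer cells, and CXCL8, a neutrophil chemokine, differed by -0.48 and 0.60 (standard errors 0.23 and 0.29), and F2R, the thrombin receptor, by 0.59 (standard error 0.27). Among prostaglandin and leukotriene genes 17 of 25 were higher, while LTC4S, which makes leukotriene C4, and PTGER1, a prostaglandin E receptor, were lower by the fit (-0.50 and -0.41).

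Genes of neutrophil granules and cathelicidins were lower in HH steers in 18 of 23 cases, with a median of -0.37, but none had an unadjusted p under 0.05. The mean of the list was 7.67, 7.496, 8.17 and 8.25 in HH steers, against 8.14, 7.67, 9.14 and 8.43 in HL steers, so the groups overlapped. Of 17 erythroid genes 14 were lower, with a median of -0.09 and none at an unadjusted p under 0.05. HBA, alpha globin, had 7.38, 9.36, 10.85 and 7.94 in HH steers and 12.03, 7.09, 12.41 and 12.26 in HL steers, and HBB, beta globin, had 9.10, 11.73, 12.10 and 9.69 in HH steers and 14.19, 7.56, 13.61 and 13.65 in HL steers. HL steers 1, 3 and 4 were above all HH steers for both globins and HL steer 2 below all of them. Without HL steer 2 the differences were -3.35 (standard error 0.83) for HBA and -3.16 (standard error 0.86) for HBB, both under 0.05 by limma before adjustment. Spleens hold blood, and the part of blood content in these values was not tested. Genes of plasma cells were lower in 12 of 14 cases, with a median of -0.11. Of 19 B cell and 19 T cell receptor genes 14 each were higher, with medians of 0.08 and 0.15, and CTLA4, an inhibitory T cell receptor, differed by 0.34 (limma p = 0.0498, exact permutation p = 0.0857). CPA3, a mast cell protease, had 8.43, 8.71, 8.38 and 7.96 in HH steers and 7.36, 7.82, 7.76 and 7.90 in HL steers, with no overlap. KIT, the stem cell factor receptor of mast cells, differed by 0.59 (standard error 0.32). Of 7 mast cell and eosinophil genes measured, only 4 were higher and 3 were lower.

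Among genes of fatty acid handling, FABP3 and HADHB were leading genes on the higher side. The fatty acid handling list that holds FABP3 was split, with 10 genes higher, 9 lower and a median of 0.04. FABP3, which carries fatty acids in the cytosol of oxidative tissues, had 11.98, 13.10, 11.87 and 13.68 in HH steers and 9.96, 11.41, 10.86 and 11.87 in HL steers. The highest HL steer just reached the lowest HH steer, and the difference was 1.63 (standard error 0.50, limma p = 0.00527, exact permutation p = 0.0571). CPT1A, which controls the entry of long chain fatty acids into mitochondria, had 12.35, 11.47, 11.65 and 14.14 in HH steers and 10.69, 9.97, 11.87 and 12.002 in HL steers. The groups overlapped and HH steer 4 led. The difference was 1.27 (standard error 0.59, limma p = 0.0487, exact permutation p = 0.2), and 0.69 (standard error 0.52), no longer under 0.05, without HH steer 4. CPT2, the next enzyme, differed by 0.28 (standard error 0.12), and ACADVL, the first dehydrogenase of long chains, by 0.32 (standard error 0.22). With HADHB, 3 of the 19 beta oxidation genes had an unadjusted p under 0.05, all on the higher side, against 1.66% of all clusters, and 1 of 19 without HL steer 2 or without HH steer 4. The list as a whole moved little, with 13 higher, 6 lower and a median of 0.07. PDK4, the kinase that shuts pyruvate dehydrogenase when fat is burned, had 14.68, 14.72, 14.82 and 14.66 in HH steers and 13.58, 13.68, 14.87 and 13.82 in HL steers, where HL steer 3 alone was as high as the HH steers. GPAT3, an enzyme of triglyceride synthesis, and ELOVL5, a fatty acid elongase, were higher by 0.59 and 0.60, with HH steer 3 low for both. LPIN1 and PLPP2, phosphatases of lipid synthesis, differed by 0.08 and 0.06 (standard errors 0.23 and 0.12).

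Of 26 genes of the TCA cycle and pyruvate dehydrogenase, 20 were higher and 6 lower in HH steers, with a median of 0.11. CS, citrate synthase, had 11.67, 11.15, 11.19 and 11.43 in HH steers and 10.49, 10.50, 10.89 and 11.23 in HL steers, with overlap at HL steer 4. SUCLA2, a subunit of succinyl-CoA ligase, had 10.80, 10.74, 10.53 and 10.86 in HH steers and 10.40, 10.33, 10.49 and 9.96 in HL steers, with no overlap and a difference of 0.44 (standard error 0.18). PDHB, a subunit of pyruvate dehydrogenase, differed by 0.39 (limma p = 0.0452, exact permutation p = 0.0571) and MDH2, mitochondrial malate dehydrogenase, by 0.49 (limma p = 0.104, exact permutation p = 0.257). These 3 of 26, CS, SUCLA2 and PDHB, had an unadjusted p under 0.05 on the higher side (1.66% of all clusters) and 0 on the lower, against 1 on each side without HL steer 2, 1 and 0 without HH steer 4 or HL steer 4 and 0 without HH steer 1. Of 49 nuclear genes of oxidative phosphorylation 33 were higher and 16 lower, with a median of 0.07 and none at a p under 0.05. Glycolysis and glycogen genes were higher in 19 of 26 cases (median 0.20). GYG1, glycogenin, which starts a glycogen chain, had 10.997, 10.78, 11.20 and 11.30 in HH steers and 10.68, 10.66, 10.66 and 10.73 in HL steers, so that every HH steer lay above a narrow HL range. TPI1, triose phosphate isomerase, differed by 0.53 (standard error 0.27). Without HL steer 2 the TCA median was 0.05 and the glycolysis median 0.04.

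Smooth muscle genes had the highest median of the lists described, 0.46, with 14 of 16 higher and 2 lower in HH steers. KCNMA1, the pore of the calcium-activated potassium channel of smooth muscle, had 7.66, 7.68, 7.86 and 8.02 in HH steers and 7.03, 7.09, 7.26 and 7.49 in HL steers. All HH steers were above all HL steers, with a difference of 0.59 (standard error 0.16, limma p = 0.00215, exact permutation p = 0.0286). SYNPO2, an actin-binding protein of muscle, had 12.41, 12.67, 13.08 and 12.79 in HH steers and 12.09, 12.29, 12.05 and 12.01 in HL steers, also apart, with a difference of 0.63 (standard error 0.24). The defining genes MYH11, smooth muscle myosin, DES, desmin, and CNN1, calponin, differed by 0.75, 0.81 and 0.94 (standard errors 0.48, 0.54 and 0.62). DES had 13.26, 13.57, 15.23 and 14.46 in HH steers and 13.07, 13.72, 13.66 and 12.84 in HL steers, with HH steers 3 and 4 above the rest. The mean of the 16 genes was 11.6, 12.4, 12.9 and 12.1 in HH steers, against 11.93, 11.94, 11.97 and 11.5 in HL steers, so the groups overlapped at HH steer 1. Without HH steer 3 the median was 0.18, with 12 higher and 4 lower. How much capsule or trabecula each sample held was not tested. Among 23 collagen and matrix genes 19 were higher (median 0.24), led by the laminin chain LAMC1 at 0.73 (standard error 0.28). Channel genes as a group showed no such shift, with 10 of 21 potassium channel genes higher. KCNE4, an accessory potassium channel subunit, had 8.75, 8.38, 8.16 and 8.04 in HH steers and 7.69, 7.79, 7.82 and 7.55 in HL steers, and SCN4B, a sodium channel subunit, had 7.69, 7.60, 7.70 and 7.85 in HH steers and 7.41, 7.39, 7.34 and 7.45 in HL steers, both without overlap.

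Of 31 cytosolic heat shock genes 25 were higher and 6 lower in HH steers, with a median of 0.15. CRYAB, a small heat shock protein abundant in muscle, had 8.04, 8.52, 9.57 and 10.57 in HH steers and 7.60, 8.11, 8.37 and 7.05 in HL steers, led by HH steers 3 and 4. HSPB8, its partner with BAG3 in protein quality control, and HSPA2, an HSP70 protein, differed by 0.51 and 0.56, and these 3 of 31 had an unadjusted p under 0.05 on the higher side, against 1.66% of all clusters. Leaving out 1 steer left 1 to 3 such genes, and 1 without HL steer 2, HL steer 4 or any of HH steers 1, 3 and 4. HSPH1, the HSP110 exchange factor, had 12.63, 13.22, 12.12 and 13.32 in HH steers and 13.16, 12.62, 12.87 and 11.13 in HL steers, and DNAJB1, an HSP40, had 11.39, 11.71, 12.02 and 13.61 in HH steers and 12.16, 12.26, 12.61 and 11.81 in HL steers. Both overlapped widely, and HH steer 4 was the highest of the 8 for both genes. BAG3, HSPA4L and DNAJC5 differed by 0.28, -0.47 and 0.02 (standard errors 0.38, 0.30 and 0.23). Among 22 endoplasmic reticulum genes 14 were higher (median 0.12), and CANX, calnexin, differed by 0.34 (limma p = 0.049, exact permutation p = 0.0571). Of 17 glucocorticoid response genes 13 were higher, with a median of 0.29 and none at a p under 0.05. FKBP5, which binds the glucocorticoid receptor complex, had 17.16, 17.26, 16.04 and 16.52 in HH steers and 14.79, 14.08, 16.89 and 16.73 in HL steers, with HL steers 1 and 2 low and HL steers 3 and 4 inside the HH range. TXNIP, TSC22D3 and ZBTB16 differed by 0.38, 0.55 and 0.66. Without HL steer 2 the median of the list was 0.13. Outside ADORA2A, adenosine and cAMP genes were split, 11 of 23 being higher. CREM, a repressor and activator of cAMP targets, differed by 0.31 (standard error 0.16), AKAP12, a kinase anchor, by 0.47, and ENTPD1, which degrades extracellular ATP, by -0.40. Of 18 SR splicing factor and CLK genes 15 were higher (median 0.11), with SRSF7 at 0.52 (limma p = 0.0399, exact permutation p = 0.114), but 8 were higher and 10 lower without HL steer 2. Proliferation genes were higher in 20 of 26 cases (median 0.15), with CDC20, an activator of the anaphase promoting complex, at 0.40 and no overlap, and MKI67 at 0.40 (standard error 0.28). SIRT6, a nuclear deacetylase, had 9.34, 9.29, 9.38 and 9.24 in HH steers and 9.44, 9.62, 9.45 and 9.86 in HL steers, with no overlap. TSHZ2, a zinc finger transcription factor, differed by 0.30 (standard error 0.17), and the lymphocyte GTPase genes GIMAP8 and LOC511617 by 0.05 and 0.25.

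**Figure D4:**
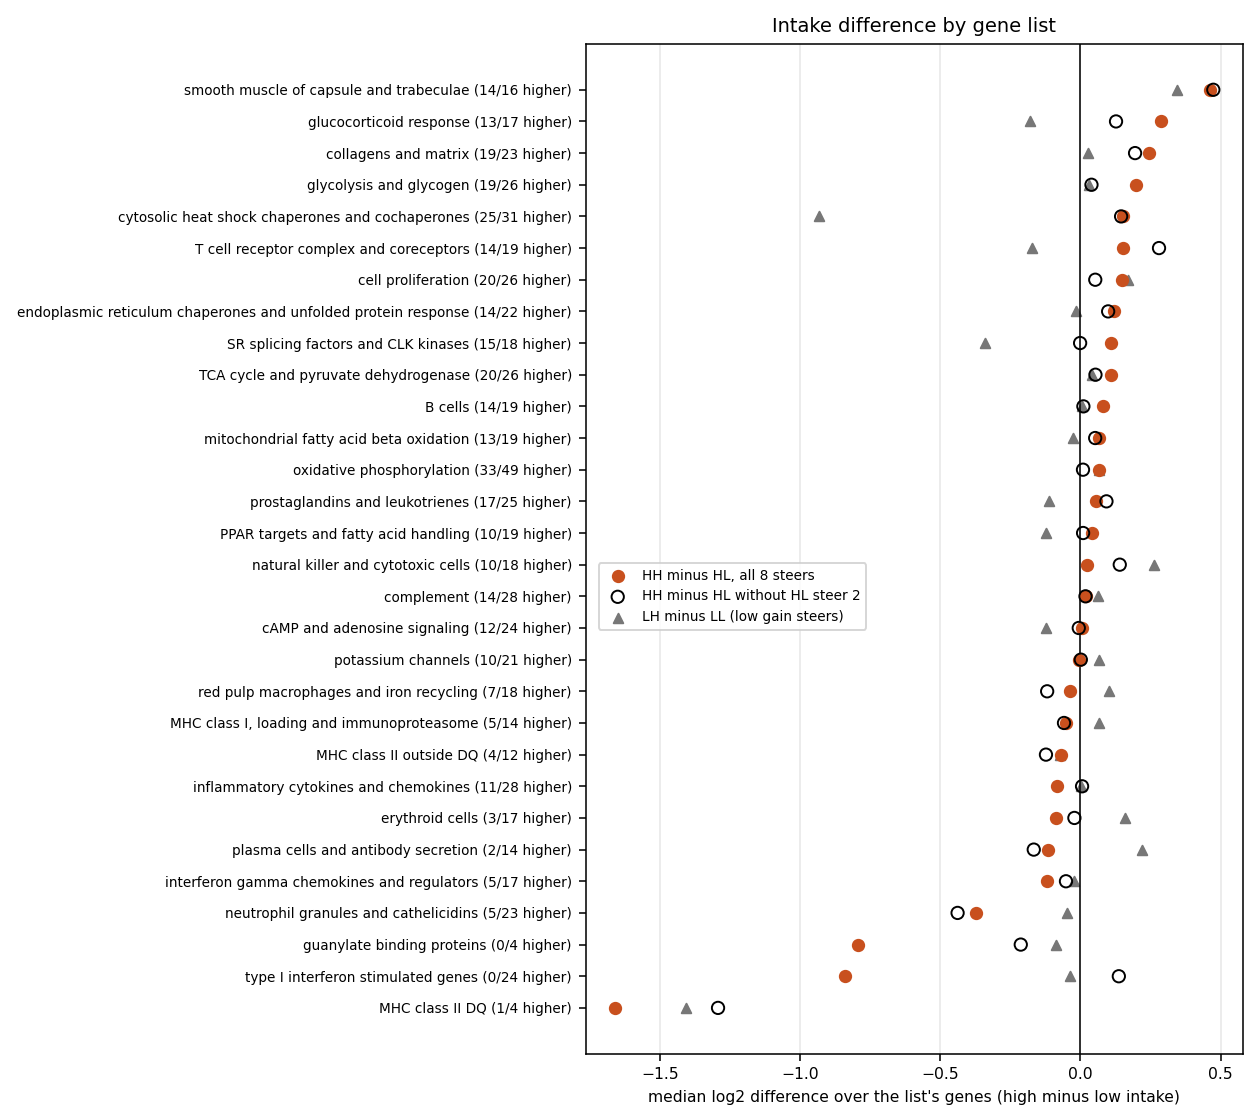
Median log2 difference over the genes of each of 30 lists. Filled circles are HH minus HL steers, open circles the same without HL steer 2, and triangles LH minus LL steers, and each label gives how many of the list's genes were higher in HH steers. Type I interferon genes cross 0 when HL steer 2 is left out, smooth muscle genes stay near 0.46, and heat shock genes lie near -0.93 only among low gain steers.

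Setting the low gain steers beside these values showed how far the intake difference was shared. No steer belongs to both comparisons. Of the 904 clusters under 0.05 among high gain steers, 61 (6.75%) were also among the 1129 (4.52% of all clusters) under 0.05 among low gain steers, and they made up 5.40% of these. Of these 61, 26 had the same direction and 35 the opposite. The differences of all 24997 clusters correlated at r = -0.06 across genes, which are not independent replicates and share the arrays. The interaction, HH minus HL less LH minus LL, had an unadjusted p under 0.05 for 345 (38.2%) of the 904 clusters, against 1163 (4.65%) of all clusters, of which 614 were positive and 549 negative. The high gain difference is part of that interaction, so the larger share among the 904 follows from their choice. No interaction reached an adjusted p under 0.05. In limma's low gain comparison HSPH1, CREM and TSHZ2 had an adjusted p of 0.262 and BAG3 and KCNMA1 one of 0.795. TSHZ2 had a low gain difference of 0.996 (standard error 0.17) and an interaction of -0.69 (standard error 0.24).

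KCNMA1 had about the same difference in low gain steers, 0.65, and its interaction was -0.06 (standard error 0.23). SYT11 and GYG1 also shared their direction, at 0.32 and 0.54 in low gain steers. Smooth muscle genes were higher in LH than in LL steers in 15 of 16 cases (52.9% of all clusters), with a median of 0.35. The mean of these 16 genes lay between 11.8 and 13.2 in LH steers and between 11.5 and 12.6 in LL steers, so the groups overlapped. SUCLA2, SCN4B, SRSF7, ELOVL5 and SIRT6 had the opposite direction in low gain steers at an unadjusted p under 0.05, with differences of -0.56, -0.31, -0.75, -0.62 and 0.25. ADORA2A, PI15, MUSTN1 and GABRB1 had low gain differences of -0.04, -0.12, -0.15 and 0.03, and interactions of 0.77, 1.43, 1.51 and -0.97 (standard errors 0.20, 0.40, 0.47 and 0.29). These genes, like FABP3 and CRYAB, were picked by their high gain difference. That difference is part of the interaction, so the size of their interactions follows in part from the choice. FABP3 and CRYAB had low gain differences of -0.84 and -0.93, with interactions of 2.47 and 2.32. Heat shock genes differed most in this respect. Their low gain median was -0.93, and 29 of 31 were lower in LH than in LL steers (47% of all clusters). An unadjusted interaction p under 0.05 was seen in 20 of 31, against 4.65% of all clusters. The paper had reported several heat shock genes as raised in LL steers on these same arrays. The list was chosen with earlier results known, so the count is not independent of that report. HSPH1 had a low gain difference of -3.29 and an interaction of 3.67 (standard error 0.81), BAG3 an interaction of 1.97 and CREM one of 1.20 (standard error 0.22). BOLA-DQB had a low gain difference of -2.72, and its interaction of -1.26 had a standard error of 1.85.

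**Figure D5:**
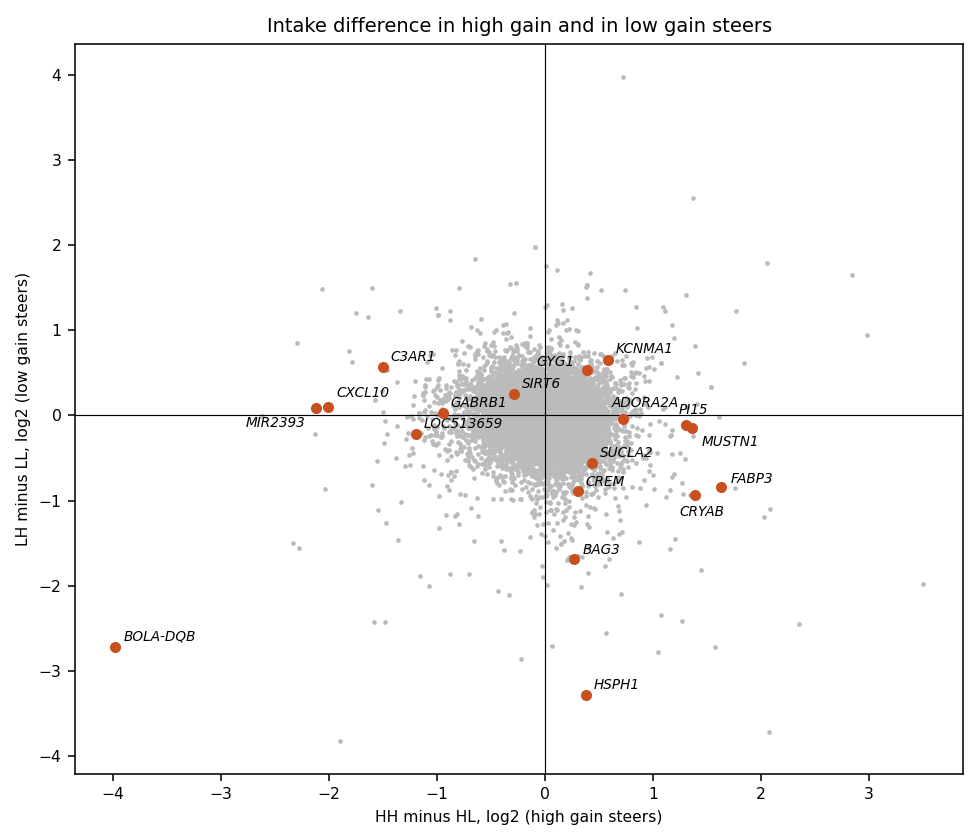
Log2 difference HH minus HL (horizontal axis) against LH minus LL (vertical axis) for all 24997 clusters (grey) and 18 named genes (orange). KCNMA1 and BOLA-DQB lie off 0 on both axes in the same direction, ADORA2A, PI15, MUSTN1 and GABRB1 lie near 0 on the vertical axis, and HSPH1 lies far below 0 on it.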

How the data were processed

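For each of the 16 steers, all separate animals, 250 ng of spleen RNA went on 1 Bovine 1.1 ST array. The authors corrected the probe signals for GC content, stretched them with SST and applied RMA in Affymetrix Expression Console, and deposited log2 values. Stretching widens differences. Transcriptome Analysis Console is also named in the submitters' processing notes, without versions.

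Of 26773 features, 1776 numbered below the first annotated ID were dropped and 24997 kept, 18790 of them with 1 gene symbol, 385 with several (not named) and 5822 not listed. By gene ID, 18003 matched RefSeq. Where a gene had several clusters, the brightest was used. Values were fitted with limma 3.58.1 in R 4.3.3 (4 group means, 16 arrays, 12 residual degrees of freedom), with Benjamini-Hochberg adjustment over all features, and the fit was checked on simulated data. Named genes were the 10 with the smallest p per direction above the median level. The 5 largest differences per direction at an unadjusted p under 0.05 were also named. To these were added genes of the study's own tables, leading members of the lists described and defining cell type markers. Of 1278 genes in the 67 lists made, 1186 were analysed. Genes and lists were chosen with earlier results of these data known. The number of arrays limits the precision. Alternatives were other moderation, array weights, other scalings, filters on features and leaving out single steers.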

Additional observations from a re-analysis of the deposited data

Results flagged for a closer look

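In 25 of 290 groups of 4 steers checked, 1 steer lay far from the other 3 by Dixon's ratio. The checked items were named genes, some of them picked after their values were seen, and means of lists that share such genes. The count is therefore not set against a chance rate. Of these, 10 concerned HL steer 2. Its mean over type I interferon genes was 14.8, against 10.5 to 11.1 in the other HL steers, with EPSTI1 at 14.8, IFIT2 at 11.8, RSAD2 at 16.6, MX1 at 18.0, ISG15 at 16.1 and GBP4 at 12.1, each above the others. Its mean over erythroid genes was 7.91, against 8.46 to 8.51, with HBA at 7.09 and HBB at 7.56. Antiviral genes were thus high and globin genes low in the same spleen. HL steer 1 was low for BOLA-DQB (8.61), PTX3 (6.52), LOC511617 (10.03) and the mean of DQ genes (10.1) and high for BOLA-DQA2 (10.2). HL steer 3 was low for BOLA-DRA (19.4, a cluster with 1 identical value in several steers) and for the mean of inflammatory cytokines (8.75). HL steer 4 was low for the mean of smooth muscle genes (11.5).

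Among HH steers, steer 1 was low for LOC780876 (5.15) and steer 3 high for CDS1 (8.90), IFIT2 (8.77) and the mean of natural killer genes (10.4). HH steer 4 was low for GBP5 (8.10) and high for CPT2 (10.1) and for the mean of endoplasmic reticulum chaperones (13). SIRT6 was lower in every HH than in every HL steer and higher in every LH than in every LL steer, an interaction of -0.53 (standard error 0.15, limma adjusted p of 1).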

How the results depend on the processing

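With 24997 features the count at an unadjusted p under 0.05 was 801 to 925 under the other moderation, weighting and scaling settings, against 904, and 642 over features with 1 symbol. Restricting the test to features above the lower quartile of level gave 590, of which 287 were lower, fewer features being tested. No setting gave an adjusted p under 0.05, the lowest being 0.166 without HL steer 2 and HH steer 3. Leaving out 1 steer at a time gave 761 to 1163 features, 339 to 665 higher (highest without HH steer 2) and 390 to 599 lower. The interaction count was 1149 to 1176 under quantile normalization, median centring and ordinary least squares, against 1163, with 0 after adjustment in each. LOC100139916 was not among the 68 named genes with an unadjusted p under 0.05 that were checked. Of these 68, 52 to 65 kept it under the settings that use all 8 steers and test them. When 1 steer was left out 42 to 58 kept it, and none changed direction. Median centring kept 64 and quantile normalization 60. Of the 30 list medians, 14 changed sign under at least 1 alternative: that of type I interferon genes, which turned to 0.14 without HL steer 2, that of glycolysis genes, which was close to 0 without HH steer 4, and 12 that lay within 0.12 of 0 from the start. Leaving out both HL steer 2 and HH steer 3, an alternative chosen after seeing the data, gave 989 features and an interferon median of -0.07. No paired analysis was possible because the replicate numbers follow accession order and no label gives the slaughter day of a steer, although each day took 1 steer of every group. Slaughter day, breed and array strip could not be modelled. No array gives counts, so depth is not defined, and 44 features reach the ceiling, where differences are only bounds.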
